A study of Arabidopsis thaliana with 10 samples.

Results

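Arrays of octa plants were compared with arrays of miR319b plants, a pair of genotypes of Arabidopsis thaliana that differ by 1 added microRNA, miR-3TCP. The comparison uses the 4 arrays that the sample labels assign to these genotypes, 2 per group, out of 10 in the series. All plants were grown on soil in short days at 20 °C, and RNA came from vegetative shoot apices. The miR319b plants carry 35S:319b, a natural microRNA driven by the constitutive 35S promoter. Its targets are TCP2, TCP3, TCP4, TCP10 and TCP24. These apices were taken at 17 DAS, the age code of the labels. Octa apices were taken at 18 DAS. Their labels give only the name octa, read here as the design's plants with both microRNAs together, in which all 8 CIN-TCP genes are targeted. Both genotypes are in the Col accession. The matched pair without miR319b is Col itself and 35S:miR-3TCP, whose artificial microRNA has TCP5, TCP13 and TCP17 as its targets, both taken at 14 DAS. The fifth group, BLS>>TCP4, expresses TCP4 from the leaf-specific BLS promoter at 14 DAS in the Ler accession. Because octa and miR319b also differ in age, the added microRNA and the added day cannot be told apart. Col, at 14 DAS, was younger than both, so wherever either is set against Col below, genotype and age cannot be told apart. Nothing in the labels says that the 2 samples of a group were grown separately. The p-values therefore measure the spread between these samples only, and that spread may be technical.

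CIN-TCP proteins are transcription factors of plants that promote the exit of leaf cells from division and the onset of differentiation. One set of them is cleaved by the microRNA miR319, and the others lack its target site. Loss of the miR319-sensitive set gives crinkled leaves whose margins keep growing. Loss of both sets makes leaves still more lobed and prolongs their growth. The comparison thus asks what silencing of the miR319-insensitive genes adds in apices in which the miR319-sensitive genes are already silenced.

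Each array's median signal was 50 by the scaling of the deposited values. Mean signals were 152.4 and 156.3 on the miR319b arrays, 142.4 and 141.3 on the octa arrays, and between 151.3 and 155.7 on the Col and miR-3TCP arrays. The octa arrays therefore had the same median but less signal among bright probe sets, with 99th percentiles of 1583 and 1554 against 1795 and 1929 in miR319b. Every result was for this reason computed on a pair of scales: log2(value + 16) as deposited, and the same values after quantile normalization, which gives all arrays one distribution. None of the 8 CIN-TCP genes has a probe set with a listed gene, so their levels are not analysed here and do not check the labels. Of the leaf polarity genes, 3 of 3 with a probe set passed the filter on dim signals, and YAB3, which specifies the abaxial leaf side, read 387 to 464.5 on the 4 arrays. Of the meristem and boundary genes 1 of 3 passed, LAS, which acts in axillary meristems, and it read between 26 and 37.2, below the array median. Of the root genes, 1 of 3 with a probe set passed. It was PYK10, a root and hypocotyl beta-glucosidase, with signals of 2113 and 2067 in miR319b and 1853 and 1937 in octa, and 1828 to 2032 in Col and miR-3TCP. None of the 3 floral and pollen genes with a probe set passed. In whole apices, fewer cells of a type and less RNA per cell cannot be told apart.

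The 4 arrays were unevenly spaced, and with 2 a group it cannot be told which replicate is unusual. Across the 13648 probe sets kept by the filter on dim signals, the standard deviation of the log2 difference was 0.30 between the miR319b replicates and 0.27 between the octa replicates. Between an octa and a miR319b array it was 0.27 in both pairs with miR319b replicate 1, and 0.32 and 0.41 in the pairs with miR319b replicate 2. Octa arrays were therefore as near to miR319b replicate 1 as to each other, and miR319b replicate 2 was farthest from the octa arrays. The widest pair, at 0.41, was miR319b replicate 2 with octa replicate 2. Some of the differences below moved by over 1.5 times when 1 of the 4 arrays was left out. For most of these, 1 or more such values or their range are given.

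**Figure D1:**
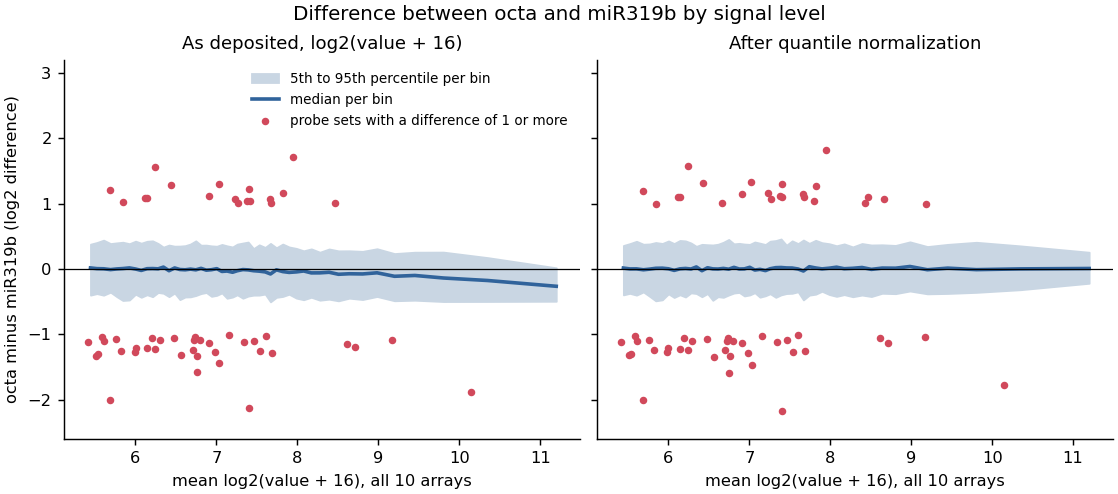
Log2 difference between octa and miR319b against the mean log2(value + 16) of a probe set over all 10 arrays, as deposited (left) and after quantile normalization (right). Lines are medians and bands the 5th to 95th percentiles of 50 bins of equal size, and points are probe sets with a difference of 1 or more either way; the median line bends below 0 for bright probe sets on the left only.

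Few transcripts differed measurably between octa and miR319b. Of 13648 probe sets tested by limma, none passed an adjusted p of 0.05 on the deposited scale (0 called, smallest adjusted p = 0.0577), and 2 passed after quantile normalization, both lower in octa. That is a background of 0.0147% called after normalization. At an unadjusted p under 0.05, limma counted 1342 probe sets (9.83%) on the deposited scale, 367 higher and 975 lower in octa, and 1225 (8.98%) after normalization, 577 higher and 648 lower. The lean toward lower signals thus went with the scale. As deposited, 56.4% of probe sets read lower in octa and the median difference was -0.037, whereas 48.9% read lower after normalization, with a median of 0.0053. The shift lay in the brightest probe sets. When probe sets were split by mean level into 5 bins of like size, the brightest bin had a median difference of -0.12 as deposited and 0.0085 after normalization. The dimmest bin had medians of 0.0043 and 0.0021. Between miR-3TCP and Col no bin had a median above 0.017 on either scale.

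Differences of at least 2-fold were rare. On the deposited scale 54 probe sets reached that size (0.396%), 18 higher and 36 lower in octa, and 59 did after normalization (0.432%). The 95% interval of the difference lay within 1 log2 unit of 0 for 12828 probe sets (94.0%). For most transcripts the model's interval thus holds no change beyond 1 unit on this scale. The interval lay wholly beyond 1 unit for 2 probe sets. The median standard error of a difference was 0.17. The arrays of the 2 groups did not overlap for 45.3% of all probe sets as deposited and 43.8% after normalization, and for 38.0% and 38.4% in the matched pair without miR319b.

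Both probe sets called after normalization lack a listed gene and are given by their identifiers. Probe set 266383_at read 229.8 and 235.6 in miR319b and 31.7 and 51.2 in octa, against 110.6 and 108.0 in Col and 80.0 and 63.3 in miR-3TCP. Both octa arrays lay below, and both miR319b arrays above, every array of the other 3 groups of the Col accession. Its difference was -2.14 ± 0.26 (SE) by limma as deposited (adjusted p = 0.0577) and -2.17 ± 0.24 after normalization (adjusted p = 0.0415). Probe set 265221_s_at read 81.4 and 77.0 in miR319b and 25.3 and 18.6 in octa, against 100.1 and 85.0 in Col and 141.2 and 113.1 in miR-3TCP. Only octa was low here, as the 2 groups carrying a single microRNA lay on either side of Col. The difference was -1.33 ± 0.16 as deposited by limma (adjusted p = 0.0577) and -1.33 ± 0.15 after normalization (adjusted p = 0.0415). Neither kept its call after normalization when any 1 array of octa, miR319b, miR-3TCP or Col was left out. The difference itself stayed between -1.89 and -2.38 for 266383_at and between -1.20 and -1.46 for 265221_s_at when 1 array of octa or miR319b was left out as deposited.

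**Figure D2:**
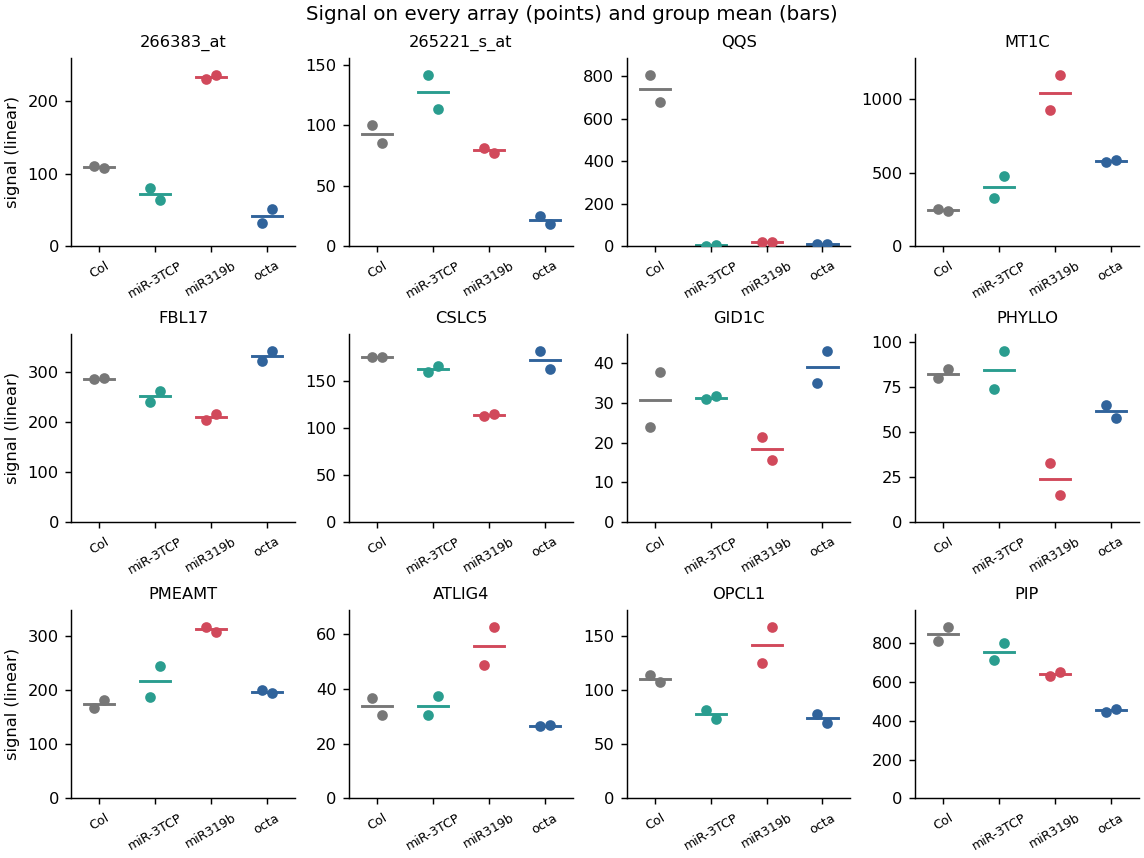
Signal on a linear scale in Col, miR-3TCP, miR319b and octa, 2 arrays each (points) with the group mean (bar), for the 2 probe sets called after quantile normalization and 10 genes; each vertical axis starts at 0. Probe set 266383_at reads 31.7 and 51.2 in octa, and QQS is high in Col only.

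Among genes with a symbol, no member passed the test, and the values below describe those that separated best. They were picked after their values were seen: 12 higher and 12 lower in octa among 1035 tested, for which the arrays did not overlap on either scale (179 higher and 205 lower in all). All p-values in this description are limma's on the deposited scale. FBL17, an F-box protein that removes inhibitors of cyclin-dependent kinases, read 205.1 and 216.3 in miR319b and 323.1 and 341.8 in octa. Its difference was 0.62 ± 0.18 (SE, adjusted p = 0.373), and Col lay between at 286.1 and 288.1. The gibberellin receptor gene GID1C read 21.5 and 15.5 in miR319b and 34.8 and 42.8 in octa (0.67 ± 0.22, adjusted p = 0.392). In Col it read 23.95 and 37.5, so that octa overlapped Col and miR319b did not. CSLC5, of the family that makes the glucan backbone of xyloglucan, read 113.1 and 114.4 in miR319b, 181.1 and 162.1 in octa, and 175.2 and 175.3 in Col (octa minus miR319b 0.53 ± 0.16, adjusted p = 0.377). PHYLLO, a multifunctional enzyme of phylloquinone synthesis, read 32.7 and 15.3 in miR319b, 65.1 and 58.0 in octa, and 80.2 and 84.8 in Col. Its difference of 0.99 ± 0.37 (adjusted p = 0.417) was 0.67 without miR319b replicate 2. SETH5 differed by 0.96 (0.50 without miR319b replicate 2) and the aminopeptidase gene APM1 by 0.49. The mitotic chromosome protein gene 3xHMG-box1 differed by 0.47 (0.24 without miR319b replicate 2) and the RNA helicase gene PRH75 by 0.46 (0.26 without that array). GLC differed by 0.61 (0.38 without octa replicate 1). The sugar transporter gene SFP1 differed by 0.41, MAG2 by 0.36 and the histone deacetylase gene HDA15 by 0.34. Because arrays without overlap were required, leaving out 1 array cannot change a sign here.

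Among the 12 lower genes, ATLIG4, the DNA ligase of non-homologous end joining, read 48.6 and 62.6 in miR319b and 26.3 and 26.9 in octa, with 36.8 and 30.5 in Col (octa minus miR319b -0.74 ± 0.18, adjusted p = 0.343). PMEAMT, a phosphoethanolamine methyltransferase of choline synthesis, read 316.0 and 307.9 in miR319b and 199.7 and 194.5 in octa, with 166.8 and 182.1 in Col (-0.62 ± 0.17, adjusted p = 0.359). For both, octa was on the Col side of miR319b. PIP, a proline iminopeptidase, differed in that respect: it read 633.2 and 652.0 in miR319b, 445.3 and 463.3 in octa and 812.1 and 881.4 in Col, a step further from Col in octa (-0.49 ± 0.12, adjusted p = 0.348). NRPB7, a subunit of RNA polymerase II, differed by -0.77 (-0.51 without octa replicate 2), DRT101 by -0.53 and EMB2786 by -0.58. CLUB, a subunit of a tethering complex needed for cytokinesis, differed by -0.56. The immune receptor-like kinase gene BIK1 differed by -0.41, the autophagy gene ATG8D by -0.52 (-0.34 without octa replicate 1), the photosystem II core gene psbA by -0.58 (-0.36 without miR319b replicate 2) and AFR, a far-red signalling gene, by -0.58. The expansin-like gene EXLA2 read 86.4 and 125.7 in miR319b and 62.3 and 31.9 in octa (-0.98 ± 0.31, adjusted p = 0.378), and -0.62 without octa replicate 2. Adjusted p-values of the 24 genes by limma lay between 0.343 and 0.449.

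Genes known only by a locus identifier made up all 24 genes of smallest p, 12 higher and 12 lower in octa, among those whose arrays did not overlap on either scale. The 12 higher differed by 0.56 to 1.16 (limma adjusted p between 0.315 and 0.357) and the 12 lower by -0.59 to -1.09 (0.207 to 0.327), so that none was called. AT5G59330 read 477.2 and 480.3 in miR319b and 230.3 and 204.8 in octa, below Col (577.4 and 696.4) and miR-3TCP (395.4 and 635.9), a difference of -1.09 ± 0.20. AT1G44835 read 329.2 and 392.1 in miR319b and 174.0 and 162.2 in octa, with 131.2 and 114.8 in Col, a difference of -1.03 ± 0.20. The first was lowest in octa and the second highest in miR319b. AT3G11500 read 688.6 and 765.6 in miR319b and 427.4 and 377.5 in octa, with 369.5 and 385.6 in Col (-0.83 ± 0.14). AT3G55020 read 177.3 and 103.8 in miR319b and 324.1 and 324.5 in octa, with 266.1 and 347.7 in Col (1.16 ± 0.29, and 0.82 without miR319b replicate 2). Against Col, the group mean of octa lay between miR319b and Col for 4 of the 12 higher and 2 of the 12 lower genes. It lay past Col for 8 and 8, and further from Col than miR319b for 0 and 2, AT5G59330 and AT5G47550. Both the difference and this position refer to the same miR319b arrays, so the counts are a description. In the matched pair without miR319b, 7 of the 12 higher genes read higher in miR-3TCP than in Col, and 6 of the 12 lower genes read lower, which gives no common direction.

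Among single-gene probe sets without overlap, the largest differences regardless of p depended on single arrays. AT1G60200 read 61.3 and 4.73 in miR319b and 97.5 and 105.7 in octa, a difference of 1.55 ± 0.65 (SE), and 0.61 without miR319b replicate 2. AT1G01320 differed by 1.30 (0.54 without that array) and AT4G01290 by 1.28 (0.66), each also with its lowest reading in miR319b replicate 2 (19.0 and 19.1). In the other direction, AT2G27080 read 31.5 and 128.3 in miR319b and 30.3 and 7.38 in octa. Its difference was -1.33 ± 0.64, -0.53 without miR319b replicate 2 and -0.84 without octa replicate 2. AT4G27280 differed by -1.28 (-0.71 without miR319b replicate 2) and AT2G46600 by -1.25 (-0.84 without that array). Their highest readings in the 4 arrays were 526.0 and 373.8, in miR319b replicate 2. Members of the touch, cold and cell wall lists also depended on single arrays. STZ, a zinc finger repressor induced by stress, read 66.4 and 237.4 in miR319b and 68.9 and 30.2 in octa. Its difference was -1.21 ± 0.58, -0.40 without miR319b replicate 2 and -0.77 without octa replicate 2. EXLA1, an expansin-like gene, read 22.0 and 132.5 in miR319b and 33.2 and 2.94 in octa. Its difference was -1.30 ± 0.65, -0.32 without miR319b replicate 2 and -0.61 without octa replicate 2. XTH18, a xyloglucan endotransglucosylase, read 16.6 and 96.8 in miR319b and 21.5 and 4.89 in octa. Its difference was -1.12 ± 0.65, -0.22 without miR319b replicate 2 and -0.69 without octa replicate 2. STZ and XTH18 also differed between the Col arrays, at 153.2 and 39.0 and at 124.9 and 25.1, so their spread was wide within groups. COR15A, a cold-induced chloroplast protein gene, read 15.4 and 101.7 in miR319b and 53.9 and 30.6 in octa, a difference of -0.091 ± 0.76 and of 0.86 without miR319b replicate 2.

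**Figure D3:**
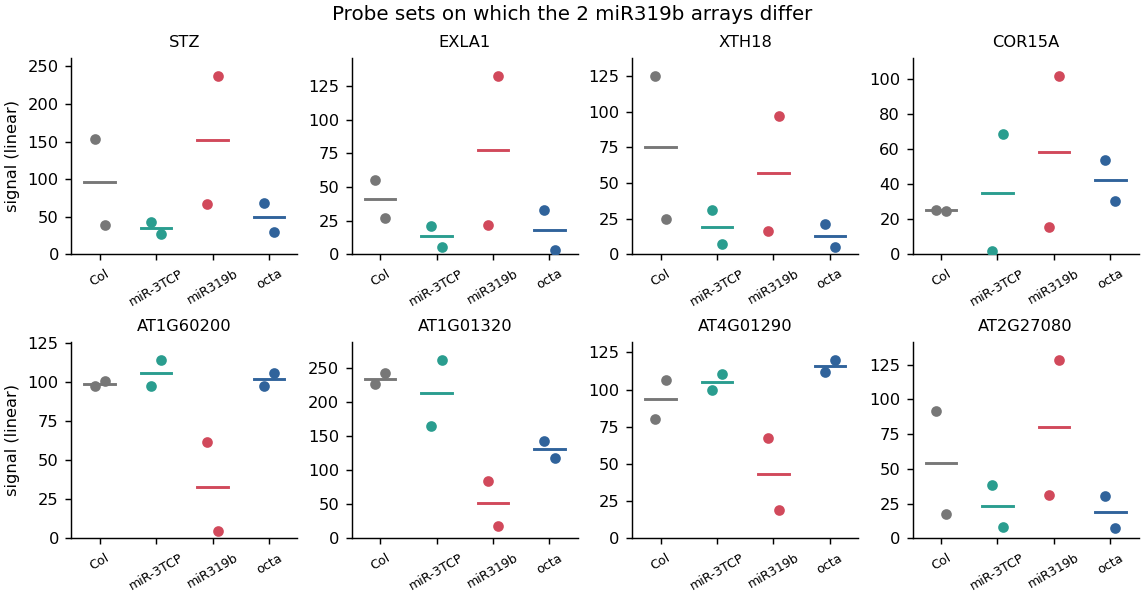
Signal on a linear scale in Col, miR-3TCP, miR319b and octa, 2 arrays each (points) with the group mean (bar), for 8 genes on which the miR319b arrays differ; each vertical axis starts at 0. In miR319b, STZ reads 66.4 and 237.4 and AT1G60200 reads 61.3 and 4.73.

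The matched pair bears on whether adding miR-3TCP goes with the same differences with and without miR319b. Limma's interaction contrast called 1 of 13648 probe sets (0.00733%), on both scales, and at an unadjusted p under 0.05 for 974 as deposited (7.14%) and 914 after normalization (6.7%). That gene was QQS (AT3G30720), a gene without known relatives that is linked to starch and protein content of leaves. QQS read 804.9 and 676.8 in Col, 1.42 and 7.77 in miR-3TCP, 20.9 and 21.1 in miR319b, and 11.6 and 12.5 in octa. It was high in Col only: it was low in all 3 microRNA genotypes and also in BLS>>TCP4, at 5.66 and 1.18. The interaction also carries the day of age between octa and miR319b, since Col and miR-3TCP are of one age, and the microRNA and the day cannot be told apart in it. The pair with miR319b was also older, at 17 and 18 DAS against 14 DAS. The miR319b background and this age cannot be told apart either. On the log2(value + 16) scale, adding miR-3TCP went with a difference of -0.40 with miR319b and of -5.21 without it, an interaction of 4.81 (3.39 when the pseudocount was 64). That size was largely set by the floor of the scale. From the readings in miR319b the difference could go no lower than -1.21 even with octa at 0, so that the interaction could come out no lower than 4.00 (3.14 when the pseudocount was 64). The readings in miR-3TCP also lay below the pseudocount. The contrast is therefore no test of whether the effect of miR-3TCP on QQS differs between the backgrounds, and its p is not given. The gene with the next smallest p among lower values, AT3G55920, had the opposite arrangement, with 25.95 and 30.5 in Col, 109.3 and 110.4 in miR-3TCP, 114.4 and 131.8 in miR319b, and 119.0 and 77.8 in octa. It was high with either microRNA, and no higher with both (interaction -1.81 ± 0.26 by limma, adjusted p = 0.205). In BLS>>TCP4 it was also high, at 126.7 and 155.9, so that Col alone was low. AT5G19120 read 729.7 and 831.7 in Col, 437.4 and 396.7 in miR-3TCP, 329.2 and 259.6 in miR319b, and 453.8 and 741.3 in octa. Either microRNA alone went with a lower reading than Col, and octa stood between (octa minus miR319b 0.95, and 0.61 without octa replicate 2, interaction 1.83 ± 0.43, limma adjusted p = 0.659). Of the other genes of smallest interaction p, AT2G27830 (1.20), AT3G03870 (1.23) and AT3G16670 (1.62) were on the higher side and AT3G11500 (-1.02), AT2G23090 (-0.89), AT3G16080 (-0.89) and AT1G01100 (-0.63) on the lower side, none called. Across all 13648 probe sets, the octa minus miR319b and miR-3TCP minus Col differences, which share no array, correlated at r = -0.031 as deposited and -0.032 after normalization, with rho of -0.073 and -0.079. Probe sets of 1 array share its hybridisation and are not independent replicates, so these are descriptions.

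The genes with the smallest p against Col mostly had small differences between miR319b and octa. They were chosen on these same miR319b and octa arrays, which favours genes with tight readings. Their small differences and narrow intervals partly follow from that choice and describe these genes only. Against Col, limma called 518 probe sets in miR319b (3.8%) and 245 in octa (1.8%) as deposited, and 579 (4.24%) and 154 (1.13%) after normalization. Both contrasts use the same Col arrays, so they are only set side by side. Col was taken at 14 DAS, miR319b at 17 DAS and octa at 18 DAS, so each contrast carries age as well as genotype. AT2G29290 read 81.3 and 132.8 in Col, 8.31 and 8.42 in miR319b, and 8.08 and 11.9 in octa. Its octa minus miR319b difference was 0.089, with a 95% interval from -0.40 to 0.58. AT1G29270 read 126.2 and 136.5 in Col, 325.5 and 327.1 in miR319b, and 288.5 and 317.6 in octa (-0.10, interval -0.40 to 0.20). AUR2, one of the Aurora kinases that act in mitosis and cytokinesis, read 245.0 and 248.9 in Col, 116.1 and 109.8 in miR319b, and 121.4 and 108.5 in octa (0.021, interval -0.26 to 0.30). AT4G17560 read 1188 and 1307 in Col, 604.1 and 507.4 in miR319b, and 587.5 and 644.0 in octa (0.15, interval -0.16 to 0.45). For AT1G29270, AUR2 and AT4G17560 the interval holds no 2-fold change. AT2G29290 read below the pseudocount in both genotypes, where the scale understates differences. Its interval therefore does not exclude a 2-fold change of signal. Without each array in turn the differences lay between -0.017 and 0.19 for AT2G29290 and between -0.17 and -0.037 for AT1G29270. They lay between -0.051 and 0.092 for AUR2 and between 0.025 and 0.27 for AT4G17560 (lowest without miR319b replicate 2). AT5G44680 (-0.075), AT3G15550 (0.18), AT3G57160 (0.026) and AT4G36390 (-0.23, and -0.081 without miR319b replicate 2) likewise differed little between the genotypes. Without each array in turn AT5G44680 lay between -0.15 and -0.0019 and AT3G57160 between -0.14 and 0.19. AT3G05730 was an exception among the genes chosen this way, with 681.7 and 608.2 in Col, 305.3 and 220.7 in miR-3TCP, 47.1 and 34.3 in miR319b, and 21.0 and 22.8 in octa. It read lower with each microRNA than in Col and lowest in octa, with an octa minus miR319b difference of -0.57 ± 0.19 that limma did not call (adjusted p = 0.392).

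Gene lists for the leaf and the apex held few measured members. Of 64 lists, 32 had at least 3 tested probe sets, and 0 of the 219 tested members of any list were called on either scale, against the background of 0.0% as deposited and 0.0147% after normalization. Lists are described by counts and medians beside the median of all probe sets, -0.037 as deposited and 0.0053 after normalization. Ranges given for a median are its deposited-scale values without each of the 4 arrays in turn.

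Genes of leaf growth, identity and division gave no call between the 2 genotypes. Of the 6 tested leaf growth regulators 3 read higher and 3 lower in octa (median -0.020, range -0.082 to -0.030, and 0.024 after normalization). ROXY1, a glutaredoxin that controls petal number and is a member of that list, read 179.2 and 173.9 in miR319b and 135.1 and 111.8 in octa (-0.47 ± 0.20, limma adjusted p = 0.479), and 58.1 and 52.8 in Col. JAG, which drives the outgrowth of leaf and petal blades, read 82.3 and 93.6 in miR319b and 95.5 and 81.8 in octa (0.0087, from -0.086 to 0.10 without each array in turn). Of the 3 leaf polarity genes, the adaxial determinant PHV read 408.5 and 442.1 in miR319b and 379.6 and 263.3 in octa (-0.41 ± 0.20, limma adjusted p = 0.535, and -0.16 without octa replicate 2), while YAB3 differed by 0.12 and YAB5 by -0.10. Of the 58 genes in the mitotic list only 3 were tested, the Aurora kinase genes AUR1, AUR2 and AUR3, so the list describes that family only. They had a median of 0.021 (range 0.056 to 0.13) and all read slightly higher in octa, but the groups overlapped for AUR2 and AUR3. AUR1 differed by 0.20 (0.10 without miR319b replicate 2), with 185.0 and 159.7 in miR319b and 195.0 and 204.7 in octa. The 2 core histone genes read lower in octa. HTB2, a histone H2B gene, read 393.5 and 406.4 in miR319b and 296.6 and 247.8 in octa (-0.53 ± 0.21, limma adjusted p = 0.449).

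Hormone and flowering genes had medians that depended on single arrays. The 6 auxin response genes had a median of 0.034, 5 of them higher, which turned to -0.026 without octa replicate 1. The 4 gibberellin genes, 2 higher and 2 lower, had a median of 0.087, with GID1C above as their largest. It turned to -0.11 without miR319b replicate 2 and -0.051 without octa replicate 2, so neither list has a settled direction. Of the 5 flowering and phase change genes 4 read higher in octa (median 0.12, and 0.13 after normalization). The median was 0.028 without octa replicate 1 and 0.46 without octa replicate 2. GI, a clock-linked promoter of flowering, read 29.8 and 46.7 in miR319b and 72.5 and 52.4 in octa. Its difference was 0.54 ± 0.23 (limma adjusted p = 0.489). It was 0.31 without miR319b replicate 1 and 0.35 without octa replicate 1. FD, the bZIP partner of florigen, read 33.75 and 26.95 in miR319b and 47.5 and 37.9 in octa (0.34, and 0.22 without octa replicate 1). The only tested jasmonate gene was OPCL1, an acyl-CoA ligase of jasmonate synthesis, with 125.6 and 158.4 in miR319b and 78.5 and 70.2 in octa. Its groups did not overlap, and Col at 114.6 and 107.5 lay between (-0.80 ± 0.25, limma adjusted p = 0.378). The 3 stomatal lineage genes read lower in octa (median -0.23, range -0.31 to -0.17, and -0.22 after normalization). STOMAGEN, a peptide that promotes stomatal formation, read 127.2 and 117.7 in miR319b and 81.7 and 95.5 in octa, with 197.6 and 211.1 in Col (-0.41 ± 0.22, limma adjusted p = 0.564). FMA, which drives guard cell differentiation, read 43.6 and 39.0 in miR319b and 33.0 and 32.5 in octa (-0.23).

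Pigment and photosynthesis genes showed where the scale matters. All 5 flavonoid and anthocyanin genes read lower in octa on both scales, with medians of -0.35 and -0.29, but their replicates were far apart and the deposited-scale median was -0.013 without octa replicate 2 and -0.20 without miR319b replicate 2. UGT78D2, a flavonol glucosyltransferase, read 287.3 and 436.4 in miR319b and 343.2 and 195.2 in octa. Its difference was -0.43 ± 0.32, -0.044 without octa replicate 2 and -0.14 without miR319b replicate 2. DFR, the dihydroflavonol reductase of anthocyanin synthesis, read 445.4 and 304.9 in miR319b and 365.4 and 222.0 in octa. Its difference was -0.35 ± 0.71, -0.013 without octa replicate 2 and -0.091 without miR319b replicate 1. The groups overlap for both. The 6 photosynthesis genes had a median of -0.14 (range -0.23 to -0.11) with all 6 lower in octa as deposited, and 0.11 with 5 of 6 higher after normalization. PSBW, a small subunit of photosystem II, read 2163 and 2178 in miR319b and 1692 and 1836 in octa (-0.30 as deposited, and -0.029 after normalization). PSBY, another subunit, turned from -0.22 (-0.12 without octa replicate 1) to 0.055. The tubulin gene TUA6 went from -0.36 (-0.24 without miR319b replicate 2) to -0.078, with 2066 and 2451 in miR319b and 1711 and 1795 in octa. The 10 tubulin and actin genes as a list had medians of -0.14 (range -0.19 to -0.083) and -0.023. ACT11, an actin gene, read 202.5 and 195.0 in miR319b and 282.5 and 241.3 in octa (0.37 and 0.45 on the log2 scale).

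Genes of protein turnover and redox control gave no call. Of 27 tested proteasome and ubiquitin genes, 19 read lower in octa as deposited and 18 after normalization, where 56.4% and 48.9% of all probe sets did. Their medians were -0.15 (-0.097 without miR319b replicate 2) and -0.12. An unadjusted limma p under 0.05 was reached by 3 of them as deposited and 2 after normalization, near the 9.83% and 8.98% of all probe sets. UBC18, a ubiquitin-conjugating enzyme, read 170.9 and 193.1 in miR319b and 139.3 and 135.5 in octa, and 136.4 and 147.6 in Col (-0.37 ± 0.13, adjusted p = 0.417). UBC27, a second such enzyme, read 371.2 and 409.5 in miR319b and 305.6 and 312.9 in octa (-0.32). Of the 10 glutaredoxin and thioredoxin genes 7 read lower as deposited and 6 after normalization, also near the shares of all probe sets. Their medians were -0.19 and -0.18, and the first was -0.064 without miR319b replicate 2. GRXC2 differed by -0.47 (-0.25 without miR319b replicate 2) and GRXC1 by -0.36 (-0.15 without octa replicate 1). Of 9 expansin genes 5 read lower (medians -0.23 and -0.12), among them EXLB1 at -0.58. The deposited-scale median was -0.052 without octa replicate 1, -0.074 without miR319b replicate 1 and -0.47 without octa replicate 2. The only tested metal homeostasis gene was MT1C, a metallothionein. It read 252.2 and 237.8 in Col, 327.2 and 481.9 in miR-3TCP, 927.1 and 1164 in miR319b, and 574.2 and 584.8 in octa. Octa thus stood between Col and miR319b with no overlap, at a difference of -0.83 ± 0.33 (limma adjusted p = 0.444), and miR319b had been called above Col (2.02, adjusted p = 0.0171).

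**Figure D4:**
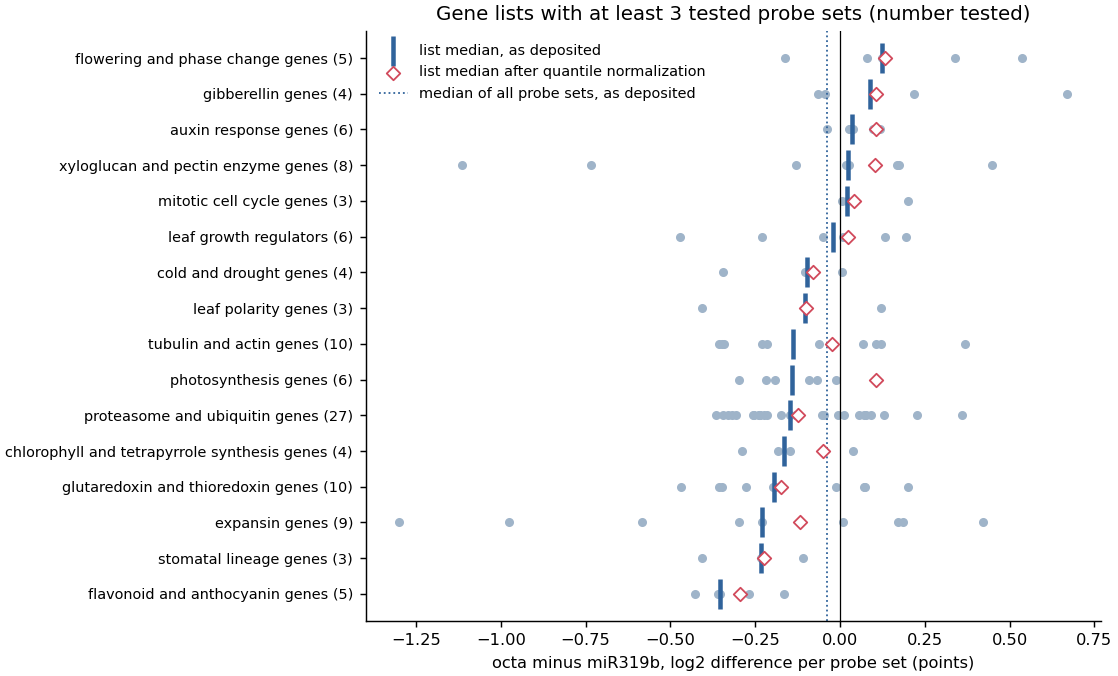
Log2 difference between octa and miR319b for each tested probe set of a list (points), with the list median as deposited (blue bar) and after quantile normalization (red diamond). Lists are those described with at least 3 tested probe sets, and the dotted line marks the median of all probe sets as deposited; the photosynthesis median moves from -0.14 to 0.11.

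Genes altered by a gain of TCP4 were chosen on arrays that the octa and miR319b comparison does not use. The question was how transcripts that respond to more TCP4 read when more CIN-TCP genes are silenced. Of the 2355 probe sets called higher in BLS>>TCP4 than in Col as deposited (17.3%), 66.5% read lower in octa than in miR319b, with a median of -0.10. Of the 1175 called lower (8.61%), 44.5% read lower in octa, with a median of 0.031. Over all probe sets 56.4% read lower, with a median of -0.037. After normalization the 1214 called higher (8.9%) had a median of -0.031, with 55.4% lower in octa. The 1321 called lower (9.68%) had a median of 0.066, with 38.4% lower in octa, against 0.0053 and 48.9% for all probe sets. Level moved with these sets as deposited: those called higher had a median signal of 228.1, against 127.6 for all probe sets and 116.8 for those called lower, and 960 of them lay in the brightest of 5 bins by level. In that bin the medians were -0.15 for those called higher, -0.025 for those called lower and -0.12 for all. After normalization they were 0.011, 0.064 and 0.0085 there, so that those called higher read no lower than all probe sets of that bin. The dimmer bins differed from it. In bins 1 to 4, from the dimmest up, normalized medians were -0.046, -0.043, -0.016 and -0.037 for those called higher. They were 0.036, 0.099, 0.027 and 0.086 for those called lower, against 0.0021, 0.0053, 0.0012 and 0.012 for all. The part of level in the separation was not tested further. The separation was small, and it rested on miR319b replicate 2. Without that array the medians of the deposited-scale sets were -0.063 and -0.042, against -0.043 for all, whereas without miR319b replicate 1 they were -0.14 and 0.081. Across all probe sets the differences of octa minus miR319b and BLS>>TCP4 minus Col correlated at r = -0.19 as deposited and -0.18 after normalization. BLS>>TCP4 is in another accession than Col, so the TCP4 gain and the accession cannot be told apart.

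**Figure D5:**
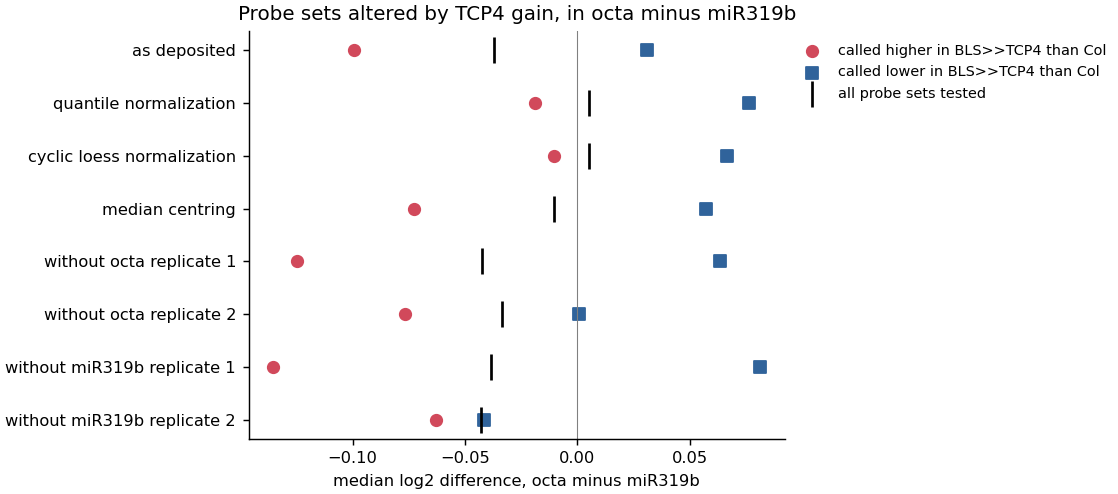
Median log2 difference between octa and miR319b for probe sets called higher (red circles) or lower (blue squares) in BLS>>TCP4 than in Col as deposited, and for all probe sets (black bars), under other normalizations and without each array of octa and miR319b. Without miR319b replicate 2 the 3 medians lie between -0.063 and -0.042.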

How the data were processed

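Total RNA of vegetative apices had been hybridised to Affymetrix arrays, 1 per sample. The values deposited by the authors are linear intensities, 1 per probe set. The submitters' processing notes name MAS5 as their tool. The version and settings of that tool, and the build behind the array, were not given in the sources used here. Every array has a median of 50. Gene names come from the platform annotation, updated through a RefSeq gene table (TAIR10.1): of 22746 without the 64 AFFX controls, 13513 list 1 gene, 503 several and 8730 none. Of the first, 13436 matched the table.

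The deposited intensities were transformed here to log2(value + 16), which understates differences of dim probe sets. The 13648 probe sets at or above the 40th percentile of the mean were kept. All 10 arrays entered one limma 3.58.1 fit (R 4.3.3, lmFit, contrasts.fit, eBayes with intensity trend) with a term per group and 5 residual degrees of freedom, and a second fit after quantile normalization. Calls required an adjusted p (Benjamini-Hochberg, over all kept) under 0.05. The fit was tested on simulated data. The number of arrays limits the precision.

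Named genes followed a rule: the 12 higher and 12 lower genes of smallest p (the larger of both fits) without overlap between groups, up to 3 of smallest p per list, 8 per contrast with Col, 5 each way of the interaction and 3 largest differences each way. Genes with a symbol were added after their values were seen. The members and lists were chosen with earlier results of these data known. Lists whose name patterns also matched unrelated genes are not described. Alternatives covered normalization, pseudocount, filter, samples in the fit, array weights, trend, replicate block and leaving out each array.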

Additional observations from a re-analysis of the deposited data

Results flagged for a closer look

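QQS was the only probe set that the interaction contrast of limma called as deposited, at 4.81 on the log2(value + 16) scale, with differences for miR-3TCP of -0.40 with miR319b and -5.21 without. QQS read 20.9 and 21.1 in miR319b, close to the pseudocount of 16, from where the scale allows a difference no lower than -1.21. The interaction could therefore come out no lower than 4.00, and it does not test whether the effect differs between the backgrounds. No group holds more than 2 arrays, so no test for outlying arrays was made, and which array of a group is unusual cannot be told.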

How the results depend on the processing

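Called probe sets between octa and miR319b numbered 0 on the deposited scale, 2 after quantile normalization, 2 when the pseudocount was 1 and 2 when only probe sets above the 60th percentile were kept, each time 266383_at and 265221_s_at. Only the arrays of the Col accession gave 1, 266383_at (limma adjusted p = 0.00936), and array quality weights gave 3, with 253660_at (-1.88) as the third. No probe set was called with cyclic loess, with centring on the median of the probe sets kept, or when the pseudocount was 64. The same held without the filter, without the intensity trend and when only octa and miR319b arrays were fitted. Over all settings 266383_at lay between -2.5 and -1.5 and 265221_s_at between -1.82 and -0.74. After quantile normalization the count of 2 became 0 to 0 without each array of octa, miR319b, miR-3TCP or Col. The replicate block with quantile normalization also gave 0, and the replicate block on the deposited scale gave 0. Deviations of same-numbered samples correlated between -0.40 and 0.45, and nothing in the labels pairs them. For the interaction the count of 1 became 0 when the pseudocount was 1, 0 above the 60th percentile, 2 with array quality weights (adding 265221_s_at), and 1 to 2 without each array in turn (2 without octa replicate 1, adding 253125_at). In both settings that gave 0, QQS was below the filter.

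Of 98 genes and probe sets, 92 kept their direction throughout. Many of them had been picked for arrays without overlap, so leaving out 1 array could not reverse them. Changes of filter, trend, replicate block or array weights left the log2 differences themselves as they were. The 92 are therefore no measure of stability. The exceptions were AT2G29290 (-0.017 to 0.19), AT3G57160 (-0.14 to 0.19), AUR2 (-0.051 to 0.092) and JAG (-0.086 to 0.10, and -0.00036 with cyclic loess) when 1 array was left out, PSBY (0.055 with quantile normalization, also with the replicate block, and 0.038 with cyclic loess) and COR15A (0.021 when the pseudocount was 1, -1.04 to 0.86 when 1 array was left out). The cause was not tested. Of 338 recomputed list medians 306 moved by less than the spread between replicates. That same spread sets how far a median moves when 1 array is left out. Several settings also left the log2 differences as they were. The 306 are therefore no measure of stability either, and the auxin response and gibberellin medians changed sign when 1 array was left out.

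With 2 arrays a group and a median standard error of 0.17, small differences were not measurable. Signal over background was not analysed here. Octa is identified by its label only, the ages differ by a day, and 8730 probe sets have no listed gene.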
